A study of Mus musculus with 9 samples.

Results

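Marrow neutrophils of wild type C57/B6 mice were compared after 12 h of co-culture with cells named PyMT-N and after 12 h on their own, in both cases with 0.5% fetal bovine serum. This comparison used 6 of the 9 libraries of the study. The 3 libraries labelled "alone" held neutrophils cultured without other cells, and the 3 PyMT-N libraries held neutrophils that were sorted out of the co-culture in DMEM by flow cytometry. The remaining 3 libraries, from co-culture with PyMT-M cells, entered the model fit only. PyMT is the polyoma middle T antigen, an oncogene used to induce mammary carcinoma in mice; what N stands for, how the PyMT-N cells were derived and the age and sex of the mice are not stated in the labels. The labels do not say that the neutrophils alone were sorted, so an effect of sorting and an effect of the tumour cells cannot be told apart. Libraries are labelled as biological replicates 1 to 3, without the animal behind each, so the p-values measure the spread between these libraries.

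The neutrophil is the most abundant granulocyte of the marrow. It packs proteases and antimicrobial proteins into granules while it matures, and then lives for a short time on its way through blood and tissue, led by chemoattractant receptors and integrins. When it meets interferon or inflammatory cues it changes its transcription. Type I interferon binds Ifnar1 and Ifnar2, and the kinases Jak1 and Tyk2 then activate STAT proteins such as Stat2, which join Irf9 and bind the interferon-stimulated response element (ISRE) in front of antiviral genes. Inflammatory signals release NF-kB from its inhibitors such as Nfkbia, and NF-kB then drives cytokines, chemokines such as Cxcl2 and the genes of its own inhibitors.

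Stretches of 6 promoters are shown because genes with these elements were among those that rose. They were read on the strand of the gene from RefSeq windows of build GRCm38.p6, with capitals for matches on either strand, overlapping ones joined, to the ISRE core GAAANNGAAA or the NF-kB motif GGGANNTTCC. The first 4 genes encode interferon-induced proteins: viperin (Rsad2, chr12:26456538-26456597), a binder of foreign RNA (Ifit1, chr19:34640779-34640838), a guanylate-binding protein (Gbp2, chr3:142620579-142620638) and an immunity-related GTPase (Irgm1, chr11:48871421-48871469). The last 2 encode a neutrophil chemoattractant (Cxcl2, chr5:90903778-90903837) and the NF-kB inhibitor IkBa (Nfkbia, chr12:55492648-55492701).
Rsad2: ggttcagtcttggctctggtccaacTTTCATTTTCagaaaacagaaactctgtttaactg
Ifit1: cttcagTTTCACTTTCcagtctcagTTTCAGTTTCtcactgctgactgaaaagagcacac
Gbp2: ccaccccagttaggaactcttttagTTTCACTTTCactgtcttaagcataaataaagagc
Irgm1: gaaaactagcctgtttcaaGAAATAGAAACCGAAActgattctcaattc
Cxcl2: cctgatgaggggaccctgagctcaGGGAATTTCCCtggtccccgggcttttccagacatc
Nfkbia: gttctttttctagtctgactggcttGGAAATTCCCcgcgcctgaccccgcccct
Searched over the 250 bases before the start of each gene, the ISRE core stood in 9 of the 18 interferon-stimulated genes that were expressed alone and had a window in the table. Among all genes of that table the share was 3.46%, and among genes expressed alone it was 3.33%. Genes expressed alone that rose at least 4-fold under every scaling described below carried it in 22 of 219 windows, and those that fell at least 4-fold in 15 of 425. The NF-kB motif was found in 3 of 19 windows of the NF-kB list, against 1.36% of all windows and 1.74% of those of genes expressed alone. Rises of at least 4-fold carried it in 6 of 219 windows and falls of at least 4-fold in 9 of 425, shares of 2.74% and 2.12%. A match describes the letters of the window and is no evidence of binding.

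The alone libraries held 1641049 to 3180382 counts and the PyMT-N libraries 3507969 to 4524563. Alone replicate 3 was the shallowest and stood apart from the others of its group, with 12.66% of its counts in mt-Rnr2, a mitochondrial ribosomal RNA, against 5.917% and 7.387%. The share was 2.652% to 4.005% with PyMT-N cells, below all alone libraries, and its part in the results was not tested. Of 12012 tested genes, 7295 had a mean of at least 10 normalised CPM, the counts scaled to a common library size, alone and are called expressed alone. A further 3472 lay between 1 and 10 CPM, and 1245 lay under 1 CPM and are called near absent alone. Leng1 was just inside the limit of 10 with a mean of 10.02 CPM and Ppib just outside with 9.99. Genes expressed alone made up 98.1% ± 0.306 (SD, n = 3) of all counts in the alone libraries and 91.0% ± 0.684 with PyMT-N cells. The share of near absent genes went from 0.0283% ± 0.0176 to 2.84% ± 0.347, and no PyMT-N library overlapped with an alone library in either share. The classes were cut on the alone libraries, and near absent genes passed the filter mostly through another group. A low share alone and a rise of this class therefore follow largely from the definition, and the separation of the groups in these shares is no test.

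Because a gain of counts in a class lowers the share of all others, the fit was repeated under 6 size factor choices: the trimmed mean of M values (TMM), relative log expression, upper quartile, library totals, TMM over genes expressed alone, and the summed counts of 30 pan-leukocyte genes. TMM is the main scaling. The median log2 fold change of all tested genes was 0.122 with TMM, and the pan-leukocyte scaling moved it by 1.05. Falls are therefore given with the count under all 6 choices, and rises and falls are relative to the median of the scaling named.

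Markers of other cells moved with the groups. The 23 epithelial markers fixed for this comparison summed to 1394 to 2010 CPM alone and 4849 to 5579 with PyMT-N cells. List sums, here and below, are CPM of the library totals, while single genes are in normalised CPM. Lcn2 is on this list and also on that of neutrophil markers, so the sum does not measure epithelial RNA only. No count of Epcam, Krt19, Cldn4 or Esrp1, which define epithelia, was seen in an alone library, while Epcam had 152, 228 and 191 CPM with PyMT-N cells. The 23 mesenchymal markers summed to 1317 to 1474 CPM alone and to 4894 to 6313 with PyMT-N cells. The list did not rise as a whole: of its 6 members expressed alone, 3 rose and 2 fell with TMM. Of the 23 markers, 5 had no count in any PyMT-N library and 3 had none in any alone library. Tpm1 (tropomyosin 1), a member of this list, had 25.8, 44.5 and 49.0 normalised CPM alone and 2454, 2989.6 and 3191 with PyMT-N cells. Vim (vimentin), which leukocytes also express, fell from 1427, 1273 and 1475 to 497, 515 and 467. Pan-leukocyte genes went from 28600 to 31860 CPM alone to 16450 to 19230 with PyMT-N cells. These markers moved along with every rise given below, and their part in those rises was not tested.

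**Figure D1:**
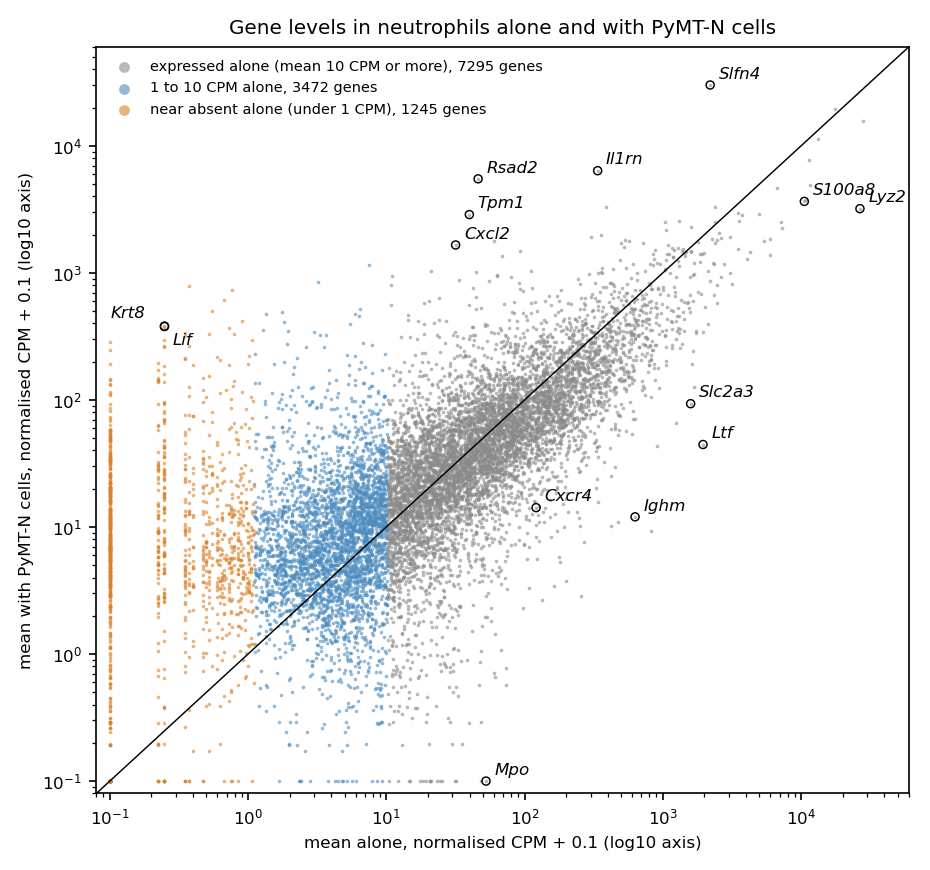
Mean normalised CPM of each tested gene alone (x axis) and with PyMT-N cells (y axis), both on log10 axes after adding 0.1; points are genes, coloured by whether they were expressed alone, between 1 and 10 CPM, or near absent alone, and the line marks equal levels. Near absent genes such as Krt8 and Lif lie far above the line at the left, while among genes expressed alone Rsad2 and Slfn4 lie above it and Lyz2 and Ltf below it.

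Over all 12012 tested genes, 3531 (29.4%) were higher and 2830 (23.6%) were lower with PyMT-N cells. Among the 7295 genes expressed alone, 1377 (18.9%) were higher and 2578 (35.3%) were lower with PyMT-N cells with TMM scaling (adjusted p under 0.05, edgeR quasi-likelihood test). Under all 6 size factors the counts were 1354 (18.6%) higher and 812 (11.1%) lower. These shares are the background for each list count below. With upper quartile factors 1364 genes expressed alone were higher, and with each other choice more were higher than with TMM, up to 3607 with pan-leukocyte factors. A rise under all 6 is therefore little more than a rise with TMM, whereas a fall under all 6 is a much stricter call. The 2 groups did not overlap for 4106 of the 7295 genes (56.3%), so that groups apart are the common case here. Of the 1354 rises, 961 were at least 2-fold, 268 at least 4-fold and 29 at least 16-fold, with a median log2 fold change of 1.30. All 812 falls were at least 2-fold, a consequence of asking for a fall under the pan-leukocyte scaling too; 612 were at least 4-fold and 149 at least 16-fold. Without alone replicate 3, 1578 of 7299 genes expressed alone were higher and 2883 lower with TMM, and 1509 and 1025 under all 6 scalings; 1200 of the 1354 rises and 749 of the 812 falls were among these.

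Interferon-stimulated genes rose as a block. Of 44 listed antiviral effectors, 43 were tested and 23 were expressed alone; all 23 rose, under each of the 6 scalings, where 18.9% of genes expressed alone did. Their median log2 fold change was 3.66, against -0.32 over all genes expressed alone. Rsad2, which encodes viperin, an enzyme that makes a chain-terminating nucleotide, stood at 34.3, 29.1 and 74.7 normalised CPM alone and 5626, 5773 and 5105 with PyMT-N cells (log2 fold change 6.99 ± 0.29 SE, adjusted p = 1.0e-10). Ifit1 went from 7.57, 8.22 and 16.6 CPM to 954, 742 and 716. Slfn4, a schlafen family gene of myeloid cells, was at 2417, 2005 and 2182 CPM alone and already abundant there, and reached 32900.1, 30613 and 26894 (log2 fold change 3.78 ± 0.14, adjusted p = 3.3e-11). Gbp2 and Irgm1, shown above for their promoters, went from 23.2, 18.7 and 9.05 to 548, 345 and 366 CPM and from 20.5, 25.4 and 2.26 to 272, 182 and 226 CPM. For each of these genes every PyMT-N library lay above every alone library by a wide gap. The smallest rise of the 23 was that of Slfn1, with 237, 210.4 and 321 CPM alone against 757, 527 and 635. Without alone replicate 3, 21 of the 23 would still have a mean of at least 10 CPM alone, and Ifit1 and Ifi47 would not. Slfn, Oas1 and Ifit genes have near-identical relatives, and counts between such copies are uncertain.

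The rest of the interferon list sat lower at the start. Isg15, the ubiquitin-like modifier, and Ifit3, another RNA-binding effector, were chosen here after their values were seen. Isg15 had 3.56, 1.87 and 10.6 normalised CPM alone and 433, 379 and 385 with PyMT-N cells, a log2 fold change of 6.49 ± 0.34 that was 7.22 without alone replicate 3, and Ifit3 had 8.91, 5.60 and 7.54 CPM alone and 1312, 1158 and 1009 in co-culture. Both had under 10 CPM alone in the mean, so they are not among the 23.

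Upstream of these effectors the receptors and the signalling proteins did not move together. Of 18 receptor and signalling genes expressed alone, 7 rose, 4 fell and 7 were not called; 7 rises and 2 falls held under all 6 scalings. Stat2, a DNA-binding complex partner of Irf9, was at 80.2, 90.4 and 101 normalised CPM alone and 915, 811 and 763 with PyMT-N cells (log2 fold change 3.20 ± 0.18, adjusted p = 2.4e-09). Its 2 groups were narrow and lay far apart. Irf7, the interferon-induced factor that amplifies interferon transcription, showed 7.57, 20.9 and 14.3 CPM alone and 621, 344 and 446 with PyMT-N cells. Usp18, which removes Isg15 from proteins and dampens the receptor, went from 4.46, 5.23 and 33.2 to 481, 382 and 404 CPM (log2 fold change 5.18 ± 0.42, and 6.43 without alone replicate 3). The receptor chain Ifnar2 moved the other way, from 226, 280.2 and 177 to 78.1, 63.4 and 65.9 CPM (log2 fold change -1.73 ± 0.21, adjusted p = 6.2e-06; -0.69 with pan-leukocyte scaling), and was chosen after its values were seen. Irf8, a factor of monocytes and dendritic cells, had 116, 142 and 226 CPM alone and 21.5, 26.2 and 27.1 in co-culture.

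**Figure D2:**
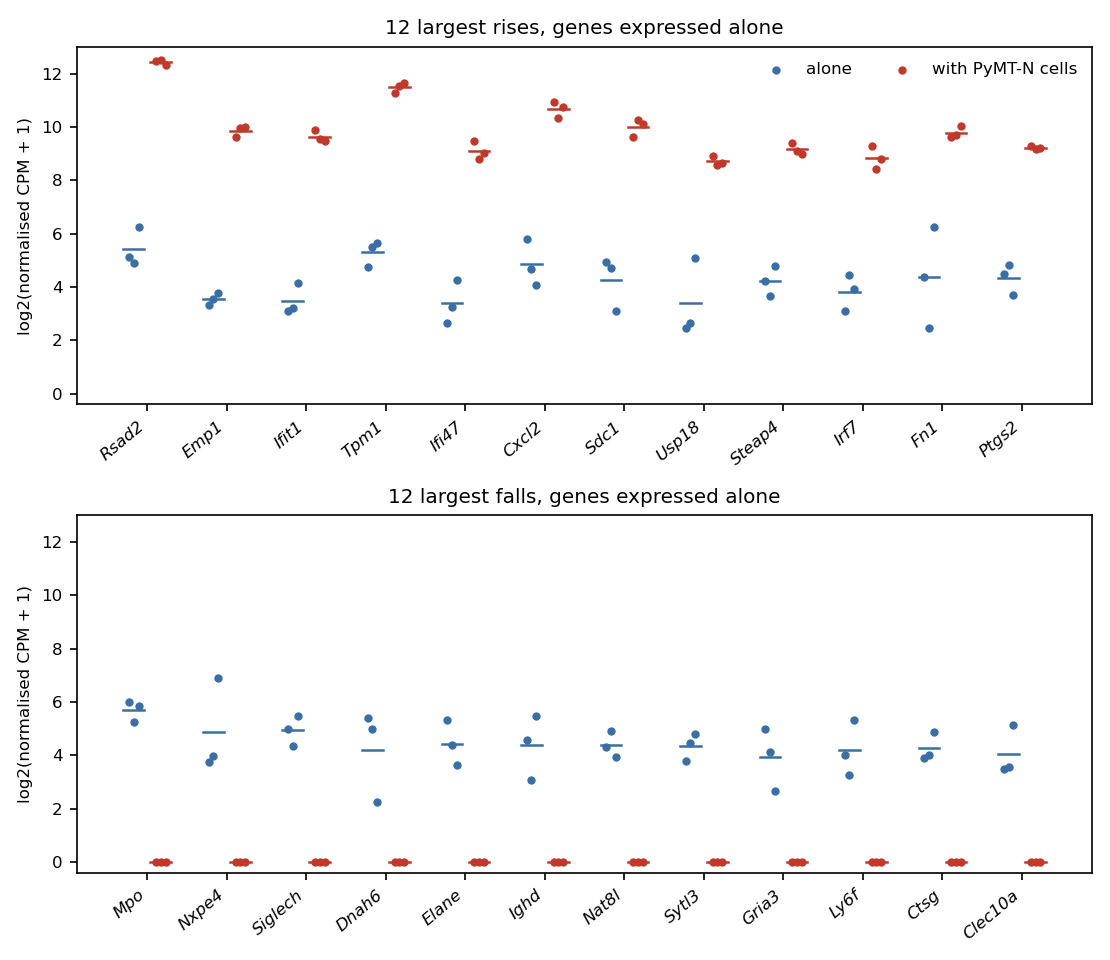
Normalised CPM of the 12 largest rises (upper panel) and 12 largest falls (lower panel) among genes expressed alone and called under all 6 scalings, as log2(CPM + 1) on the y axis; each point is a library, with 3 alone and 3 PyMT-N libraries per gene and a bar at the mean of the log2 values. The 2 groups do not overlap for any of the 24 genes, and all PyMT-N points of the 12 falls lie at 0.

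The 12 largest rises among genes expressed alone mixed interferon targets with genes of other kinds. Besides Rsad2, Ifit1, Usp18 and Irf7, the interferon-inducible GTPase Ifi47 went from 5.35, 8.59 and 18.1 to 720.1, 446 and 525 CPM. Cxcl2 and Ptgs2 (cyclooxygenase 2) are given with their families below. Steap4, a metalloreductase induced by inflammation, went from 17.8, 11.6 and 26.4 to 675, 546 and 509.7 CPM (log2 fold change 5.04 ± 0.28, adjusted p = 2.5e-09). The other 4 are widely transcribed outside the blood lineages: Emp1, a membrane protein of epithelia, Tpm1, Sdc1 (syndecan 1) and Fn1 (fibronectin). Emp1 was at 8.91, 10.8 and 12.8 normalised CPM alone and 789.8, 1005 and 1017 with PyMT-N cells. Without alone replicate 3 the means of Emp1, Ifi47, Ifit1 and Usp18 alone would lie under 10 CPM. Fn1 stood at 20.1, 4.48 and 75.4 CPM alone, the widest spread of these, and at 789.8, 822 and 1042 with PyMT-N cells (log2 fold change 4.96 ± 0.60, 4.33 without alone replicate 2 and 6.24 without replicate 3). Sdc1 was at 29.9, 25.4 and 7.54 and 788, 1241 and 1096 CPM. Tpm1 and Fn1 belong to the mesenchymal marker list, and were part of the marker sums given above.

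Cytokine transcripts mostly rose. Of 11 listed cytokines expressed alone, 8 rose and 2 fell, and 8 and 1 did so under all 6 scalings; the median log2 fold change was 1.46. The largest gain in level among them was that of Il1rn, the soluble antagonist that blocks the interleukin 1 receptor, at 306, 221 and 486 normalised CPM alone and 6378, 6141 and 6609 with PyMT-N cells (log2 fold change 4.25 ± 0.26, adjusted p = 6.8e-09). Il1b, the agonist of the same receptor, went from 523, 464 and 621 to 2208, 1327 and 1880.2 CPM (log2 fold change 1.76 ± 0.25, adjusted p = 3.8e-05). Il1r2, the decoy receptor that binds interleukin 1 without signalling, had 53.5, 32.9 and 41.5 CPM alone and 945, 640.5 and 694 in co-culture, while the signalling receptor Il1r1, chosen after its values were seen, went from 12.0, 12.7 and 12.8 to 0.861, 4.68 and 0 (log2 fold change -2.84 ± 0.68, -4.93 without PyMT-N replicate 2 and -2.12 without replicate 3). So agonist, antagonist and decoy transcripts of this system were higher and the receptor transcript was lower in the same libraries. Csf1, the growth factor of macrophages, went from 48.1, 52.3 and 27.9 to 241, 199.7 and 190.0 CPM. Tnfsf13b, which encodes the B cell survival factor BAFF, fell from 30.3, 26.2 and 21.9 to 1.72, 3.86 and 0.215 CPM (log2 fold change -3.85 ± 0.49, -4.86 without PyMT-N replicate 2 and -3.21 without replicate 3).

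Among chemokines expressed alone 5 of 6 rose, each under all 6 scalings, and Ccl9 was not called. Cxcl2, the ligand of Cxcr2 whose promoter is shown above, was at 54.4, 24.7 and 15.8 normalised CPM alone and 1963, 1294 and 1716 with PyMT-N cells (log2 fold change 5.66 ± 0.59, adjusted p = 2.4e-05; 6.29 without alone replicate 1). Ccl6 went from 351, 336 and 482 to 2993, 3668 and 3297 CPM and Ccl4, an attractant of monocytes and T cells, from 71.3, 79.2 and 77.7 to 263, 216 and 253. Every PyMT-N value of these 3 lay above every alone value. Cxcl10, the interferon-induced ligand of Cxcr3, was under 10 CPM alone at 4.46, 2.62 and 2.26 and was at 948, 692 and 901 in co-culture; it too was chosen after its values were seen.

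Receptors that guide neutrophils fell about as often as other genes. Of 13 chemoattractant receptors expressed alone, 0 rose in the edgeR fit with TMM (1 at an unadjusted p under 0.05, 1 with DESeq2, 0 with limma-voom), 5 fell with TMM, where 35.3% of genes expressed alone did, and 3 fell under all 6 scalings. The list depended on the scaling, since 8 of the 13 rose with pan-leukocyte factors, which moved its median log2 fold change from -0.28 to 0.76. Those 3 were S1pr4, a receptor of sphingosine 1-phosphate (127, 135 and 106 CPM alone, 3.44, 7.16 and 6.03 in co-culture), Ccr2, a monocyte receptor (143, 131 and 138 and 13.5, 14.6 and 4.52), and Cxcr4, which holds neutrophils in the marrow. Cxcr4 stood at 139.9, 111 and 112 normalised CPM alone and 18.4, 12.9 and 11.0 with PyMT-N cells (log2 fold change -3.12 ± 0.28, adjusted p = 3.0e-07; -2.07 with pan-leukocyte scaling). Cxcr2, the receptor of Cxcl2, was at 2772, 2488 and 2169.9 CPM alone and 2070.2, 1565 and 1781 in co-culture, a log2 fold change of -0.46 ± 0.16 with TMM that turned to 0.60 with pan-leukocyte scaling. Its call with TMM (adjusted p = 0.025) was lost without alone replicate 1 or 2 or PyMT-N replicate 2 or 3 (adjusted p = 0.109, 0.0623, 0.125 and 0.0876). The formyl peptide receptors Fpr1 and Fpr2 were not called with TMM, at log2 fold changes of -0.28 ± 0.18 and 0.17 ± 0.15.

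Cytokine receptors changed in both directions, as genes expressed alone did in general. Of 19 expressed alone, 5 rose, each under all 6 scalings, and 8 fell with TMM, of which 1, Il1r1, held under all 6. Among all genes expressed alone 18.6% rose under all 6, 35.3% fell with TMM and 11.1% fell under all 6. The counts of the list were not far from these shares. Besides Il1r2, the rises included Csf2rb, the beta chain shared by the receptors for GM-CSF and interleukins 3 and 5. Csf2rb2, a beta chain of the interleukin 3 receptor only, rose too. Both were chosen after their values were seen. Csf2rb went from 635, 763 and 759 to 2135, 1406 and 1642 CPM (log2 fold change 1.27 ± 0.17, adjusted p = 2.1e-05), and Csf2rb2 from 82.9, 102 and 80.7 to 439.7, 299 and 362. The alpha chain Csf2ra, which gives the GM-CSF receptor its specificity, went from 177, 247 and 127 to 73.5, 62.0 and 57.7 CPM with TMM (log2 fold change -1.53 ± 0.24). With pan-leukocyte factors its log2 fold change was -0.50, and it was not called. Csf3r, the receptor of G-CSF, was at 5624, 5350.3 and 4022 CPM alone and 3229, 2660.4 and 2768 in co-culture, a log2 fold change of -0.79 ± 0.16 that became 0.26 with pan-leukocyte scaling.

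Sensors of microbial products divided likewise. Of 29 expressed alone, 9 rose under all 6 scalings, while 12 fell with TMM and 5 under all 6. The shares of all genes expressed alone were 18.6%, 35.3% and 11.1%. Cd14, the co-receptor of Tlr4 for lipopolysaccharide, was at 58.8, 71.4 and 148 normalised CPM alone and 1554, 1262 and 1675 with PyMT-N cells (log2 fold change 4.06 ± 0.28, adjusted p = 2.2e-08), and Tlr4 itself, chosen after its values were seen, went from 109, 73.6 and 54.3 to 296, 232 and 252. Both groups were separate for both genes. The inhibitory lectin Clec12a went from 458, 383 and 595 to 67.7, 45.5 and 61.1 CPM and Nlrp12, a restrainer of NF-kB signalling, from 128, 133 and 128 to 32.1, 14.0 and 22.2. Of 17 Fc and inhibitory receptors expressed alone, 11 fell with TMM and 5 under all 6 scalings, and 2 rose under all 6. Here the shares of all genes expressed alone were 35.3%, 11.1% and 18.6%. Clec4a2, an inhibitory lectin, had 887, 781 and 779.9 CPM alone and 122, 91.7 and 102 in co-culture (log2 fold change -2.96 ± 0.20, adjusted p = 1.5e-08). Sirpa, the receptor of the "do not eat me" signal Cd47, went from 1221, 1342 and 1144 to 459, 371 and 424 CPM, and Siglece, an inhibitory sialic acid receptor, rose from 28.5, 21.3 and 33.2 to 135, 79.6 and 104.

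Adhesion genes changed in opposite directions. Of 21 expressed alone, 7 rose and 8 fell under all 6 scalings, where 18.6% and 11.1% of genes expressed alone did. Leukocyte integrin chains were lower: Itgal, the alpha chain of LFA-1, was at 765, 870.2 and 477 normalised CPM alone and 143, 139.9 and 138 with PyMT-N cells (log2 fold change -2.33 ± 0.21, adjusted p = 4.1e-07), and Itga4, a chain of VLA-4, went from 40.5, 32.1 and 106 to 0.574, 0.826 and 0.430 CPM (log2 fold change -6.47 ± 0.68, and -5.84 without alone replicate 3). Itgb2, the beta partner of Itgal, was at 1709, 1756 and 1260.3 CPM alone and 608, 375 and 492 in co-culture. Jaml, a junctional adhesion molecule of neutrophils, fell from 456, 554 and 403 to 63.7, 48.2 and 46.9 CPM. Several receptors of extracellular matrix were higher. Itgb1, the beta 1 integrin chain, went from 149, 149.8 and 119 to 538, 703 and 571 CPM (log2 fold change 2.11 ± 0.18, adjusted p = 2.2e-07), and Cd44, a hyaluronan receptor, from 1166, 963 and 981 to 2498, 2539 and 2562. Itga5, the alpha chain of the fibronectin receptor, went from 12.9, 20.5 and 13.6 to 113, 69.7 and 116 CPM; Itga5 and Itgb2 were chosen after their values were seen.

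Of 27 actin and migration genes expressed alone, 14 fell with TMM and 3 under all 6 scalings, and the latter is the share of all genes expressed alone that did so (11.1%). The median log2 fold change of the list turned from -0.54 to 0.52 with pan-leukocyte factors. The 3 falls were Coro1a, Dock2 and Was, leukocyte regulators of actin. Coro1a stood at 6921, 6509.7 and 8426 normalised CPM alone and 2405, 2166 and 2188 with PyMT-N cells (log2 fold change -1.69 ± 0.17, adjusted p = 7.6e-07). Dock2, an activator of Rac, went from 481, 607 and 683 to 192, 125 and 139.9 CPM. Capg, which caps actin filaments, was among 3 that rose under all 6 scalings, from 110.1, 102 and 91.3 to 282, 288 and 274 CPM.

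Most genes of the primary granule were lower, though their summed level was not. Of 9 primary granule genes expressed alone, 7 fell and 2 rose under all 6 scalings, with a median log2 fold change of -3.82 that is the same with genes lacking a PyMT-N count set at their bound. The summed level of all 14 listed genes was 675.4 to 772.1 CPM alone and 723.5 to 849.6 with PyMT-N cells, and Ctsc made up most of it in co-culture. Mpo, myeloperoxidase, had 63.3, 37.0 and 57.3 CPM alone and no count in any of the 3 PyMT-N libraries, which makes it at least 206-fold lower when 3 counts over the 3 libraries are taken as the floor. The proteases Elane and Ctsg also had no count there and were at least 91.3-fold and 75.5-fold lower. Their transcripts belong to promyelocytes, the stage at which primary granules form. Ctsc, the peptidase that activates the granule proteases, rose from 176, 135 and 219 to 732, 512 and 568 CPM (log2 fold change 1.79 ± 0.20, adjusted p = 3.7e-06).

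Of 21 genes of secondary and tertiary granules expressed alone, 13 fell with TMM, 9 fell under all 6 scalings and 1 rose. Ltf, lactoferrin, was at 2382, 1536 and 1944 normalised CPM alone and 57.1, 36.1 and 40.2 with PyMT-N cells (log2 fold change -5.46 ± 0.30, adjusted p = 2.2e-09), and Ngp, a granule protein of late precursors, went from 1408, 995 and 1323 to 89.5, 56.5 and 52.7 CPM. Lyz2, lysozyme, was at 25553, 25781 and 28649.6 CPM alone and 3715, 2704 and 3191 in co-culture, the largest loss in level of any gene expressed alone that held under all 6 scalings. The metalloproteinase genes parted: Mmp8, a collagenase, went from 2971, 2780.2 and 1699 to 755, 447 and 548 CPM, while the gelatinase Mmp9 was not called (log2 fold change -0.23 ± 0.19, adjusted p = 0.32), as Lcn2 was not (log2 fold change 0.29 ± 0.22). Wfdc21, a small secreted protein, was the 1 that rose, from 49.5, 45.6 and 50.5 to 109, 106 and 95.6 CPM.

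All 9 genes of the phagocyte NADPH oxidase, which makes superoxide, were expressed alone and fell with TMM, where 35.3% of genes expressed alone did. Under all 6 scalings 4 of the 9 genes of the oxidase fell, where 11.1% of genes expressed alone did. Cybb, its catalytic chain, was at 1547, 1425 and 2015 normalised CPM alone and 302, 178 and 251 with PyMT-N cells (log2 fold change -2.77 ± 0.21, adjusted p = 5.1e-08; -1.71 with pan-leukocyte scaling). Its partner Cyba went from 246, 265 and 247 to 95.6, 70.0 and 82.9 CPM, and Hvcn1, the proton channel of phagocytes, was among the 4 too. Of 33 lysosomal and vacuolar ATPase genes expressed alone, 16 fell with TMM but 3 under all 6 scalings. The latter was near the share of all genes expressed alone (11.1%). Hexa, a lysosomal glycosidase, went from 389, 473 and 502 to 63.7, 60.6 and 57.5 CPM, and Ctsl, cathepsin L, rose from 115, 116 and 102 to 979, 1063 and 1088 (log2 fold change 3.23 ± 0.18, adjusted p = 2.2e-09).

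Markers of neutrophils themselves stayed abundant, though more of them fell than rose and their sum was lower. All 20 neutrophil markers were expressed alone. With TMM 3 rose, 11 fell and 6 were not called, where 18.9% of genes expressed alone rose and 35.3% fell. Under all 6 scalings 3 rose and 7 fell, where 18.6% and 11.1% of genes expressed alone did. The median log2 fold change of these markers turned from -0.55 to 0.49 with pan-leukocyte factors. Their sum went from 30720 to 43410 CPM alone to 23970 to 28810 with PyMT-N cells. S100a8 and S100a9, which form calprotectin, stood at 12083, 11712 and 7891 and 13037, 11851 and 9736 CPM alone and at 4237, 3143 and 3585 and 5064, 4788 and 4933 in co-culture. S100a8 fell under all 6 scalings (log2 fold change -1.53 ± 0.18, adjusted p = 5.8e-06), and S100a9 with TMM (-1.23 ± 0.16) but not with pan-leukocyte factors (-0.16). Retnlg, a resistin-like gene of mature neutrophils, went from 1136, 979.6 and 595 to 41.9, 51.2 and 36.6 CPM.

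Transcripts of other marrow cells were much lower. All 9 B cell markers, 8 of 10 dendritic markers, all 6 markers of eosinophils, basophils and mast cells and 9 of 10 markers of monocytes and macrophages that were expressed alone fell with TMM; 8, 8, 6 and 5 fell under all 6 scalings. In such bulk libraries, fewer cells of a type and less RNA per cell cannot be told apart. Ighm, the immunoglobulin mu chain, was at 489, 449.8 and 952 normalised CPM alone and 12.3, 9.64 and 13.8 with PyMT-N cells (log2 fold change -5.70 ± 0.34, adjusted p = 5.5e-09). Cpa3, a carboxypeptidase of mast cells and basophils, went from 55.7, 83.7 and 82.2 to 0.861, 0.551 and 0 CPM (log2 fold change -7.32 ± 0.54, -8.04 without PyMT-N replicate 1 and -6.62 without replicate 3) and H2-Aa, of MHC class II, from 80.7, 105 and 218 to 3.16, 1.93 and 2.58. Alone replicate 3 was the highest of its group for Ighm and H2-Aa, and the other 2 alone libraries also lay above every PyMT-N library. F13a1, a transglutaminase of monocytes, had 124, 141 and 193 CPM alone and 22.1, 17.9 and 9.04 in co-culture.

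The 12 largest falls among genes expressed alone came in part from these cells. Besides Mpo, Elane and Ctsg, they included Siglech, of plasmacytoid dendritic cells, Ighd, of B cells, and Clec10a, of dendritic cells and macrophages. All 12 had no count in any PyMT-N library, as 17 of the 7295 genes expressed alone did. Siglech was at 30.7, 19.4 and 43.0 CPM alone and so at least 122-fold lower against 3 counts over the group. Ighd was at 22.7, 7.47 and 43.0 and Clec10a at 10.2, 10.8 and 33.9 CPM, with bounds of 95.6- and 71.9-fold that became 59.2- and 41.3-fold without alone replicate 3. The remaining 6 of the 12 were Nxpe4, Dnah6, Nat8l, Sytl3, Gria3 and Ly6f. Nxpe4 was at 12.5, 14.6 and 118 CPM alone, so that its bound of 189-fold was 53.0-fold without alone replicate 3. Dnah6, an axonemal dynein, and the glutamate receptor Gria3 went the other way within the alone group, at 41.4, 30.6 and 3.77 and 30.7, 16.4 and 5.28 CPM, with replicate 3 lowest. Nat8l and Sytl3 were at 18.7, 29.1 and 14.3 and 12.9, 21.3 and 27.2 CPM.

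Among transcription factors of granulocyte development more fell than rose with TMM, as among all genes expressed alone (35.3% lower, 18.9% higher). Of 26 expressed alone, 15 fell with TMM. Under all 6 scalings 6 fell and 6 rose, where 11.1% and 18.6% of genes expressed alone did. Cebpa, the factor that commits progenitors to the granulocyte lineage, was at 90.0, 105 and 102 normalised CPM alone and 6.31, 6.06 and 9.25 with PyMT-N cells (log2 fold change -3.75 ± 0.29, adjusted p = 8.5e-08). Runx2 went from 103, 139.7 and 106 to 18.7, 14.9 and 14.6 CPM and Max, the partner of Myc, from 391, 433 and 308 to 97.3, 87.0 and 92.1. Bhlhe40, a factor of activated leukocytes, rose from 93.1, 73.6 and 113 to 765, 739 and 716 CPM (log2 fold change 3.01 ± 0.19, adjusted p = 9.4e-09). Cebpb, which sustains emergency granulopoiesis, went from 14.3, 16.4 and 14.3 to 86.1, 92.6 and 71.2 and was chosen after its values were seen.

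In the NF-kB list the rises included inhibitors and feedback genes. Of 23 expressed alone, 9 rose under all 6 scalings, and 6 fell with TMM but 2 under all 6. The shares of all genes expressed alone were 18.6%, 35.3% and 11.1%. Tnfaip3, the ubiquitin editor A20, was at 75.7, 66.9 and 78.4 normalised CPM alone and 357, 267 and 323 with PyMT-N cells (log2 fold change 2.11 ± 0.23, adjusted p = 2.3e-06), and Nfkbia went from 274, 247 and 444 to 879, 781 and 838 CPM. Nfkb2, the subunit of the alternative pathway, rose from 53.5, 65.8 and 78.4 to 198, 104 and 139 CPM, a smaller gap between the groups. Ikbkg, the scaffold of the activating kinase, fell from 595, 659 and 329 to 134, 114 and 125 CPM. Immediate early genes gave 8 rises under all 6 scalings and 2 falls with TMM among 21, where 18.6% and 35.3% of genes expressed alone did so. Ier3 went from 111, 126 and 105 to 881, 655 and 766 CPM, Dusp5, a phosphatase of Erk, from 63.7, 57.5 and 59.6 to 290.5, 361 and 356, and Egr1 from 15.6, 25.4 and 18.9 to 187, 253 and 161. Fos was the opposite case with TMM, at 328, 269 and 211 CPM alone and 153, 109 and 113 in co-culture, but it was not called with pan-leukocyte factors (-0.07).

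Among 26 survival and death genes expressed alone, 10 rose under all 6 scalings, and 5 fell with TMM, of which 1, Bmf, fell under all 6. The shares of all genes expressed alone were 18.6%, 35.3% and 11.1%. Bcl2l1, the survival protein Bcl-xL, was at 32.5, 20.9 and 18.1 normalised CPM alone and 338, 308 and 297 with PyMT-N cells (log2 fold change 3.69 ± 0.23, adjusted p = 8.9e-09). Bmf, which binds and opposes such proteins, went from 25.0, 24.3 and 30.9 to 1.15, 0.275 and 0.646 CPM (log2 fold change -5.20 ± 0.49, adjusted p = 2.5e-07). The kinase Pim1 rose from 59.3, 74.0 and 96.5 to 408, 352 and 341 CPM and Casp4, the sensor of cytosolic lipopolysaccharide, from 25.4, 17.9 and 26.4 to 167, 105 and 128. The rises thus included genes known for survival and for inflammatory death. Mcl1, on which neutrophil survival depends, was not called (log2 fold change 0.34 ± 0.14, adjusted p = 0.054), but it was called higher under 9 of 18 alternatives, among them those without alone replicate 3 (adjusted p = 0.0289) or PyMT-N replicate 3 (adjusted p = 0.0429).

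**Figure D3:**
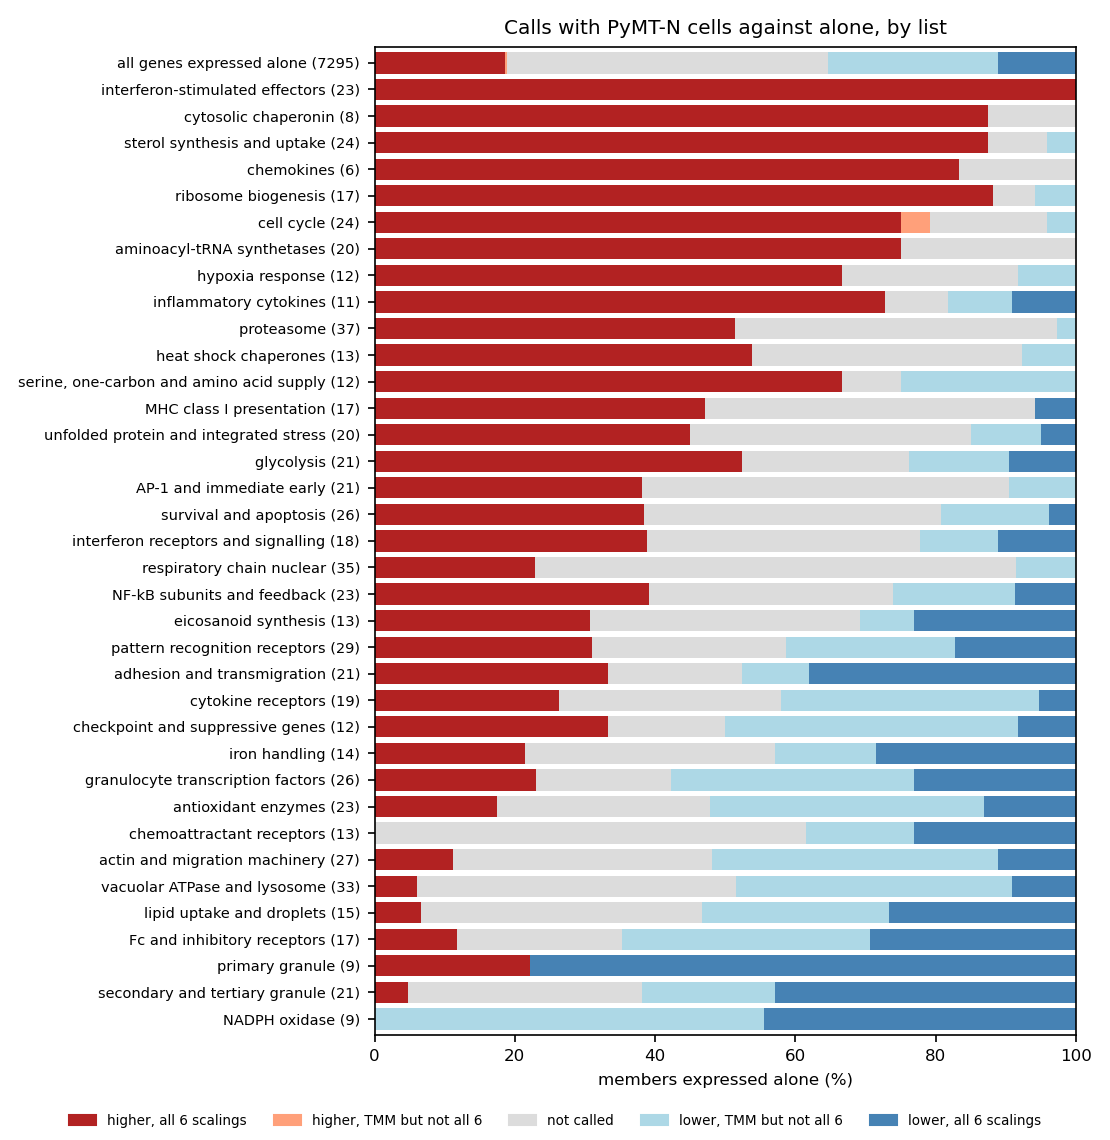
Share of the members expressed alone that were higher (red), not called (grey) or lower (blue) with PyMT-N cells, in % on the x axis, for the 36 pathway lists (y axis, with the number of members expressed alone); dark parts were called under all 6 scalings and light parts with TMM but not all 6. The top bar gives all 7295 genes expressed alone, with 18.9% higher and 35.3% lower; interferon-stimulated effectors are all red, and NADPH oxidase genes are all blue, in dark colour for 4 of 9.

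Eicosanoid genes changed in both directions. Of 13 eicosanoid genes expressed alone, 4 rose under all 6 scalings, and 4 fell with TMM and 3 under all 6. Among all genes expressed alone 18.6% rose under all 6, 35.3% fell with TMM and 11.1% fell under all 6. The falls of the list with TMM were near the common share. Ptgs2, the inducible cyclooxygenase, was at 21.4, 27.3 and 12.1 normalised CPM alone and 624, 570.2 and 599 with PyMT-N cells (log2 fold change 4.80 ± 0.29, adjusted p = 5.6e-09), and Ptges, a synthase of prostaglandin E2, went from 25.4, 20.5 and 23.4 to 60.0, 69.1 and 55.1 CPM; the call for Ptges was lost without alone replicate 3 (adjusted p = 0.0665). Alox5ap, which feeds 5-lipoxygenase, went from 628, 673 and 501 to 211, 169 and 179.9 CPM and was chosen after its values were seen. Pla2g7, which degrades platelet-activating factor, fell from 1107, 1256 and 1114 to 308, 245 and 257. Of 12 checkpoint and suppressive genes expressed alone, 4 rose under all 6 scalings, 6 fell with TMM and 1, Lgals3 (galectin 3), fell under all 6. The shares of all genes expressed alone were again 18.6%, 35.3% and 11.1%. Cd274, the checkpoint ligand PD-L1, was at 17.8, 10.1 and 23.4 normalised CPM alone and 157, 151 and 153 with PyMT-N cells (log2 fold change 3.25 ± 0.27, adjusted p = 1.6e-07). Acod1, which makes the immunomodulator itaconate, was among the largest gains in level, from 343, 210.0 and 347 to 1997, 1980.0 and 1762 CPM.

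The glucose transporters moved in opposite directions. Slc2a1, the transporter Glut1, was at 38.3, 28.4 and 23.4 normalised CPM alone and 338, 315 and 320.0 with PyMT-N cells (log2 fold change 3.40 ± 0.27, adjusted p = 1.0e-07), and Slc2a3, the transporter Glut3, was at 1853, 1496 and 1421 CPM alone and 138, 87.6 and 54.7 in co-culture (log2 fold change -4.10 ± 0.29, adjusted p = 4.7e-08). In the glycolysis list as a whole, 11 of 21 genes expressed alone rose under all 6 scalings, and 5 fell with TMM and 2 under all 6. Ldha, lactate dehydrogenase, went from 524, 419 and 559 to 1562, 1854 and 1699.9 CPM and Tpi1 from 173, 78.1 and 83.0 to 609, 569 and 566. Of 12 hypoxia response genes 8 rose under all 6 scalings, among them P4ha1, a collagen prolyl hydroxylase, from 71.7, 53.8 and 57.3 to 233, 246 and 278 CPM, and Hif1a from 215, 105 and 256 to 511, 386 and 409.

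Genes of sterol and fatty acid synthesis rose in 21 of 24 cases under all 6 scalings, with a median log2 fold change of 1.35. Scd2, a stearoyl-CoA desaturase, was at 62.8, 48.6 and 55.1 normalised CPM alone and 772, 992 and 846 with PyMT-N cells (log2 fold change 3.97 ± 0.19, adjusted p = 4.6e-10). Abcg1, which exports cholesterol, went from 12.0, 12.7 and 21.1 to 194, 202 and 166 CPM and Sc5d, a late enzyme of the pathway, from 45.9, 34.7 and 51.3 to 181, 205 and 227. Genes that take up or store lipid gave 8 falls with TMM and 4 under all 6 scalings among 15, and 1 rise. Lpl, lipoprotein lipase, went from 187, 327 and 261 to 53.1, 30.9 and 17.9 CPM and Acsl1, an activator of fatty acids, from 270.0, 267 and 259 to 34.4, 41.6 and 38.1. Acsl4, of the same enzyme family, rose from 41.9, 28.0 and 24.1 to 165, 180.4 and 168.

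Most genes in the lists of growth and protein synthesis rose. The counts under all 6 scalings were 8 of 12 for serine, one-carbon and amino acid supply, 15 of 20 for aminoacyl-tRNA synthetases, 15 of 17 for ribosome biogenesis, 7 of 8 for the cytosolic chaperonin and 18 of 24 for the cell cycle, where 18.6% of genes expressed alone rose. In the serine and amino acid list 3 of the 12 fell with TMM, and the summed level of all 22 listed genes was 2656 to 4945 CPM alone and 3969 to 4236 with PyMT-N cells, so that the groups overlapped in the sum. Shmt2, a mitochondrial enzyme of one-carbon supply, was at 28.1, 22.4 and 12.1 normalised CPM alone and 146, 193 and 183 with PyMT-N cells (log2 fold change 2.99 ± 0.25, adjusted p = 1.8e-07). Asns, asparagine synthetase, went from 20.5, 20.2 and 9.81 to 113, 120.1 and 149 CPM, Eprs, which charges tRNA with glutamate and proline, from 49.9, 43.0 and 60.3 to 182, 237 and 261, and the chaperonin subunit Cct2 from 121, 91.2 and 157 to 427, 566 and 498. Mybbp1a, a nucleolar protein, rose from 12.0, 22.4 and 23.4 to 99.6, 97.8 and 107 CPM. In each case the lowest PyMT-N library exceeded the highest alone library.

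The cell cycle list held genes of arrest as well as of division. Cdkn1a, the inhibitor p21, was at 12.9, 17.9 and 23.4 normalised CPM alone and 195, 197 and 200.4 with PyMT-N cells (log2 fold change 3.49 ± 0.24, adjusted p = 2.2e-08). Tpx2, a spindle protein, went from 10.2, 24.3 and 29.4 to 109.9, 161 and 119 CPM and Rrm2, which makes deoxyribonucleotides, from 16.9, 15.3 and 9.81 to 68.9, 90.1 and 76.4. Mki67, the proliferation antigen, was not called (log2 fold change -0.52 ± 0.27, adjusted p = 0.12), with 90.0, 95.3 and 126 CPM alone and 77.8, 53.4 and 82.2 in co-culture. The epithelial marker sum, which includes Lcn2, was 4849 CPM or more in each of the PyMT-N libraries. What epithelial RNA contributes to these lists was not tested.

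Protein quality control followed in part. Of 37 proteasome genes expressed alone, 19 rose under all 6 scalings and 1 fell with TMM. Psmb8, an interferon-inducible subunit of the immunoproteasome, went from 29.9, 34.7 and 33.9 to 108, 88.4 and 88.9 CPM (log2 fold change 1.53 ± 0.23, adjusted p = 5.8e-05), and Psmd8, of the regulatory particle, from 133, 156 and 149 to 263, 355 and 324. MHC class I genes gave 8 rises and 1 fall under all 6 scalings among 17. Nlrc5, the transactivator of the class I genes, rose from 21.8, 19.4 and 55.8 to 212, 243 and 213 CPM, whereas the class I heavy chain H2-D1 fell from 4197, 5083 and 3569 to 1761, 1187 and 1453 (log2 fold change -1.55 ± 0.17, adjusted p = 3.4e-06). Class I heavy chains are close copies, and reads between them may be divided unevenly. Among chaperones, 7 of 13 heat shock genes and 9 of 20 genes of the unfolded protein and integrated stress responses rose under all 6 scalings. Hsp90aa1 went from 63.7, 77.7 and 101 to 426, 520.4 and 529.7 CPM and Manf from 135, 145 and 184 to 495, 555 and 631, while Eif2ak3, the stress kinase PERK, fell from 99.8, 129 and 61.1 to 24.4, 28.9 and 24.1. Of 35 nuclear genes of the respiratory chain expressed alone, 24 were not called and 3 fell with TMM. Under all 6 scalings 8 rose, near the share of all genes expressed alone (18.6%). Among the 8 was Atp5g1, from 12.0, 16.4 and 16.6 to 54.5, 60.1 and 43.7 CPM.

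Iron export and storage genes were among those that fell. Of 14 expressed alone, 3 rose and 4 fell under all 6 scalings, where 18.6% and 11.1% of genes expressed alone did. Slc40a1, ferroportin, the exporter of iron, was at 1853, 1793 and 1218 normalised CPM alone and 241, 149 and 185 with PyMT-N cells (log2 fold change -3.08 ± 0.24, adjusted p = 6.6e-08), and Ftl1, a ferritin chain, went from 11219.9, 10243 and 10977 to 3917, 3555 and 3787 CPM. Fth1, the other ferritin chain, was not called (log2 fold change -0.22 ± 0.19, adjusted p = 0.37). Tfrc, the transferrin receptor that takes iron up, was chosen after its values were seen and rose from 55.7, 35.5 and 34.7 to 261, 389.5 and 321 CPM. Hmox1, which frees iron from haem, went from 518, 584 and 250.4 to 98.4, 85.1 and 85.9 CPM. Antioxidant genes gave 12 falls with TMM and 3 under all 6 scalings among 23, and 4 rises. Under all 6 scalings both shares were near those of all genes expressed alone. Cat, catalase, went from 280.3, 395 and 324 to 42.2, 40.8 and 45.2 CPM (log2 fold change -2.96 ± 0.20, adjusted p = 2.1e-08), and Txnip, which binds thioredoxin, rose from 494, 484 and 582 to 1730.1, 1554 and 1503.

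**Figure D4:**
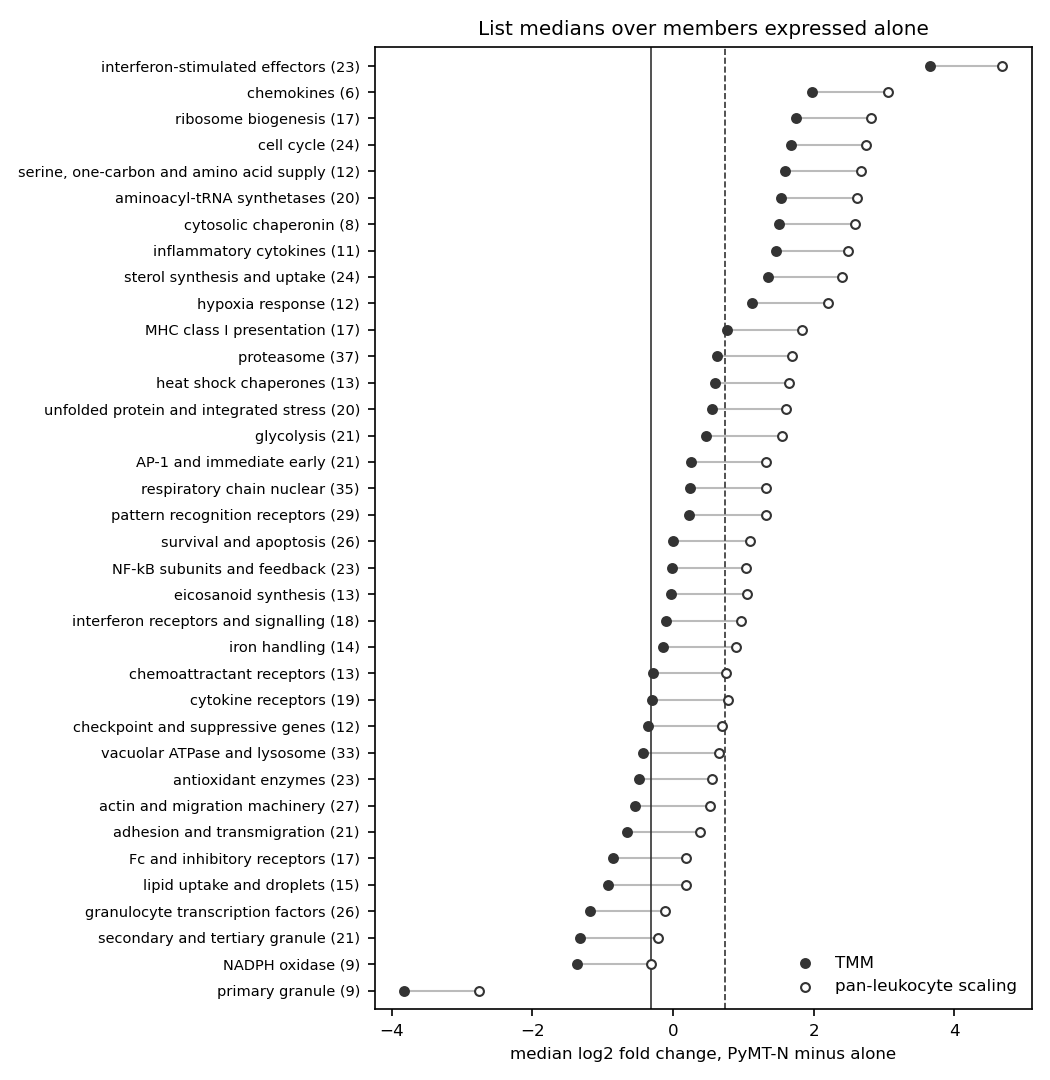
Median log2 fold change, PyMT-N minus alone (x axis), of the members expressed alone of each of the 36 pathway lists (y axis), with TMM (filled) and with pan-leukocyte scaling (open); the vertical lines mark the medians of all genes expressed alone, -0.32 and 0.74. A change of scaling moves all genes by nearly the same amount, so the order of the lists is alike under both by construction. Interferon-stimulated effectors are at the top and primary granule genes at the bottom.

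By change in level, the 10 largest gains among genes expressed alone and called under all 6 scalings were Slfn4, Il1rn, Rsad2, Ccl6, Tpm1, Cxcl2, Ifitm3, Acod1, Cd44 and Cd14. Ifitm3, which blocks entry of viruses into the cell, went from 347, 361 and 372 to 2298, 1718 and 1939 CPM. The 10 largest losses were Lyz2, Ftl1, S100a8, Coro1a, Psap, Nisch, H2-D1, Taldo1, Itm2b and Sorl1. Psap, the precursor of the saposins of the lysosome, went from 5022, 5841 and 6899.8 to 1524, 1273 and 1344 CPM and Taldo1, of the pentose phosphate pathway, from 3846, 4079 and 4229.8 to 1349, 1293 and 1245. Sorl1, a sorting receptor, had 3556, 3376 and 2317 CPM alone and 1147, 947 and 912 in co-culture. Levels of different genes are not corrected for length here, so each is compared with itself.

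Genes near absent alone are given by their levels, since a gene of this class passed the filter on low counts mostly through another group. Among the 10 of highest level with PyMT-N cells were Ano1, Hmga2, Tnc, Tm4sf1, Lif, Krt8, Il1a, Wfdc2 and Itga3. Hmga2, a chromatin protein of embryonic and tumour cells, had 1.34, 0.374 and 0 CPM alone and 483, 656 and 691 with PyMT-N cells. Keratin 8 (Krt8) was at 0.446, 0 and 0 and 359.9, 379 and 396 CPM. Its level alone rests on 1 count in replicate 1, so no ratio is given. Of these, Krt8 and Wfdc2 are on the epithelial marker list.

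Secreted factors of this class included Lif, of the interleukin 6 family, at 0.446, 0 and 0 CPM alone and 333, 425 and 385 in co-culture, and Il1a, the membrane-bound agonist of the interleukin 1 receptor, at 0, 1.87 and 0 and 286, 386 and 426. RNA of the neutrophils and RNA carried over from PyMT-N cells cannot be told apart for these genes. Arg1 and Nos2, the enzymes that compete for arginine in myeloid cells, were chosen after their values were seen. Arg1 had 0, 1.87 and 0 CPM alone and 280.1, 123 and 163 in co-culture; Nos2 had no count alone and 15.5, 6.61 and 12.7 CPM with PyMT-N cells, at least 24.2-fold higher than 3 counts over the group.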

How the data were processed

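RNA sequencing libraries were made from 150 pg of total RNA per sample, per the labels' protocols. The authors deposited whole-number read counts per Ensembl gene for 54532 genes. Alignment with STAR to GRCm38/mm10 is named in the submitters' processing notes; the counting tool, its annotation and its use of strand are not given in the sources used, so that reads of overlapping genes cannot be told apart. Symbols came from GENCODE M21 for 54409 identifiers.

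Deposited counts were filtered with filterByExpr (a count of at least 10, a total of at least 15), scaled with TMM and fitted with edgeR 4.0.16 (R 4.3.3) by its quasi-likelihood test over all 9 libraries. P-values were adjusted by Benjamini-Hochberg over 12012 genes, with 0.05 as the limit for a call; the SE is the log2 fold change divided by the root of F. The fit was tested on simulated data beforehand. Alternatives used DESeq2 1.42.0, limma 3.58.1, other size factors, other filters and left-out libraries. Floors of 3 counts and 95% intervals cover counting error only. Replicate numbers served as names.

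Named genes were the largest changes by fold and by level among genes expressed alone and called under all 6 size factors, up to 3 called members of each list in its main direction and 1 in the other, the 10 highest near absent genes, and a fixed set of further genes; members that were not called could be named with that remark. The gene lists and this rule were chosen with earlier results of these data known. Some genes that the rule gives are not reported here.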

Additional observations from a re-analysis of the deposited data

How the results depend on the processing

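The counts of genes called higher and lower, over all 12012 genes and over those expressed alone, stayed within 1.5 times the counts given in the report under 84 of 90 combinations of count and alternative. Of the counts within the 36 lists, 1160 combinations stayed within that range and 136 did not. The exceptions among the counts of genes were these. With pan-leukocyte factors 6795 of all tested genes were higher and 908 lower, and among genes expressed alone 3607 were higher and 812 lower. When only genes with a mean of at least 50 CPM counted as expressed alone, 449 were higher; fewer genes qualify by construction. Without the pan-leukocyte scaling among the 6, 1919 genes expressed alone were lower under the rest. Leaving out each library in turn gave 3140 to 3907 higher and 2425 to 3275 lower over all genes, 1156 to 1578 and 2138 to 2883 among genes expressed alone, and 1105 to 1509 and 663 to 1025 under all 6 scalings. 

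Of 159 genes given with values and refitted under each alternative, the sign of 6 turned, each with the scaling. With pan-leukocyte factors the log2 fold changes were 0.60 for Cxcr2, 0.26 for Csf3r, 0.78 for Fpr1, 0.81 for Mmp9, 0.82 for Fth1 and 0.54 for Mki67. With library totals Fpr1 was at 0.01, Mmp9 at 0.05 and Fth1 at 0.07, and with TMM over genes expressed alone these were at 0, 0.05 and 0.07. With pan-leukocyte factors Lcn2, Fpr2 and Mcl1 were called higher, at 1.35, 1.23 and 1.41.

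The replicate number of the labels as a block gave 3412 higher and 2689 lower over all genes, and 1324 and 2461 among genes expressed alone. Deviations from the group means of same-numbered libraries correlated at 0.031, -0.084 and -0.004. With 3 libraries a group, these values cannot tell whether same-numbered libraries share an animal. A floor of 3 counts came to 1.12 to 2.26 normalised CPM in the alone libraries and 0.646 to 0.861 in the PyMT-N libraries, so fold changes of genes near those levels, such as Il1r1 and Cpa3 with PyMT-N cells, rest on few counts.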
